A study of Mus musculus with 6 samples.

Results

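The miR-378 family in mouse comprises miR-378a, which gives a mature miRNA from each arm of its hairpin, and the single-product relatives miR-378b, miR-378c and miR-378d. Its members were taken by mature identifier, and for miR-378b and miR-378c by annotated name, which gave 5 of the 2110 counted loci. They were measured in vesicles, called exosomes in the labels, that were collected from mouse muscle in 3 young and 3 old libraries. Both groups are defined by age class alone. The sources used here do not give age in months, strain, sex, which muscle was taken or how vesicles were isolated. Nothing in the labels ties the replicates to separate animals, so a p-value here reflects spread among libraries that may be purely technical. The family was chosen by what an earlier comparison of the same libraries had shown, namely a higher level of miR-378d in old libraries and a place for miR-378a-3p among the most abundant loci. The old and young values of the members are therefore given as a description, also where they carry an adjusted p-value.

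A miRNA is cut from a hairpin precursor, and 1 of the 2 arms is usually kept in the silencing complex, where its seed, bases 2 to 8 from the 5′ end, pairs with target transcripts. Mir378a lies within the gene of the coactivator PGC-1β (Ppargc1b), which drives genes of mitochondria and fatty acid oxidation, and it is transcribed together with that gene. In mice, loss of miR-378a raises oxidative metabolism and resistance to diet-induced obesity, and in mouse myoblasts miR-378a-3p promotes differentiation by repressing the inhibitor MyoR. The abundance of miR-378 in heart, skeletal muscle and brown fat is well known.

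The mature sequences of miR-378b, miR-378c and miR-378d are shown because the members are read apart by single bases. Capitals mark the seed (RefSeq, GRCm38.p6).
miR-378b: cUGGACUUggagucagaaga
miR-378c: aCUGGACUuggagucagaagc
miR-378d: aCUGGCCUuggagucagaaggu
Counting from 1 at the 5′ end of miR-378c, miR-378d differed from it over 21 positions by A6C, inside the seed, and by C21G at the 3′ end. miR-378b starts 1 base further in, and over the 20 shared positions it differed from miR-378c only at the last, C21A. A read that lacks that last base therefore cannot tell miR-378b from miR-378c, whereas miR-378d keeps an internal difference from both. These 3 seeds differ from each other. Of the 1674 distinct mature sequences in the reference table, each seed was in 1. That table held no sequence for either miR-378a arm, so this count leaves both arms out. Whether they share a seed with these relatives, or differ from them only at an end base, is not addressed. These relatives are named for their likeness to miR-378a-3p, and reads with an error or a trimmed end can be assigned to the wrong member of such a family.

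The hairpins are shown with the mature miRNA in capitals, because they differ in the side from which the miRNA comes.
Mir378b hairpin: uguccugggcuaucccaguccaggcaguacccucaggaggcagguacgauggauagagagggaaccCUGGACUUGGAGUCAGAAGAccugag
Mir378c hairpin: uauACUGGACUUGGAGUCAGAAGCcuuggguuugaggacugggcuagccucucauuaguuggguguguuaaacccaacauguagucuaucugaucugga
Mir378d hairpin: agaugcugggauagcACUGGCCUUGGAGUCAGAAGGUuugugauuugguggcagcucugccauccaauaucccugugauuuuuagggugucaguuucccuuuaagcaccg
miR-378b began at base 67 of a hairpin of 92 bases, on the 3′ side, as miR-378a-3p did at base 43 of 66. miR-378c and miR-378d began at base 4 of 99 and base 16 of 110, on the 5′ side. The predicted folding energy was -31.1 kcal per mol for Mir378b, -27.0 for Mir378c and -35.0 for Mir378d. Per base, Mir378b was more stable than 24.0% of 997 annotated hairpins, Mir378d than 17.1% and Mir378c than 6.82%. All 3 thus lay in the less stable part of the distribution.

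The members also differ in their genomic setting. Both arms of Mir378a lie in an intron of Ppargc1b on its own strand, miR-378a-3p (MIMAT0003151) on chromosome 18 at 61397838 to 61397858 and miR-378a-5p (MIMAT0000742) at 61397875 to 61397896 (mm10, minus strand). miR-378b (MIMAT0019348; chromosome 11, 88352839 to 88352858, plus strand) lies opposite an intron of Msi2, which encodes an RNA-binding protein. miR-378c (MIMAT0025138; chromosome 14, 46954905 to 46954925, minus strand) lies opposite an intron of Samd4, which encodes a translational regulator. miR-378d (MIMAT0025167; chromosome 10, 126710355 to 126710376, minus strand) lies in no other annotated gene, 158051 bases from the nearest protein-coding gene, Atp23. The counting used no strand, so reads of miR-378b and miR-378c cannot be told apart from reads of the opposite introns. None of the 5 loci overlapped another counted miRNA.

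Libraries held 1459826 to 1706396 counts in young and 904892 to 1417733 in old. The shallowest, old replicate 1, stood apart from the other 5 in its share of muscle-enriched miRNAs, which took 9.91% of its counts and 4.61% to 6.26% of those of the others. Leaving it out took the number of loci called between old and young from 15 to 45. Among marker miRNAs listed for this tissue, all 6 skeletal muscle names were counted, while both endothelial names (miR-126a-3p and miR-126a-5p) were at 0 at loci that overlap another, where this counting leaves reads unassigned.

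miR-378a-3p made up nearly all of the family. It held 18389 to 19553 CPM (counts scaled to a common library size) in young libraries and took 94.7% ± 0.153 of the family's counts there (SD, n = 3). The family as a whole took 2.05%, 1.95% and 1.99% of all counts in young replicates 1, 2 and 3 and 2.56%, 2.79% and 2.64% in old replicates 1, 2 and 3, so that the groups did not overlap. In such bulk material, fewer vesicles or cells of a type and less RNA in each cannot be told apart. Levels of single loci can be set side by side without a length correction, since the mature lengths run only from 20 to 22 bases. By mean CPM over the 6 libraries the order was miR-378a-3p (rank 5 of all loci), miR-378d (rank 76), miR-378c (rank 95), miR-378a-5p (rank 134) and miR-378b (rank 292). These are ranks of loci, and a miRNA with several identical copies has its reads split among them. The let-7c hairpins, for example, averaged 24413 (Mirlet7c-1) and 25542 (Mirlet7c-2) counts, nearly all let-7c-5p, beside 30457 for Mir378a. Added over its copies, let-7c-5p would thus stand above miR-378a-3p. miR-378a-3p lay below miR-22-3p and miR-451a by more than their spread. It did not differ beyond the spread from the smooth muscle miRNA miR-143-3p and from let-7b-5p just below it. The 2 loci above and the 2 below each of the other members also lay within the spread of that member. miR-378d stood next to miR-98-5p and miR-425-5p, miR-378c next to let-7c-2-3p and miR-411-5p, miR-378a-5p next to miR-29b-3p and miR-450a-5p, and miR-378b next to miR-467b-5p and miR-467a-5p. Of these neighbours, miR-29b-3p and miR-467a-5p at least are single copies of a miRNA with more than 1 locus.

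**Figure D1:**
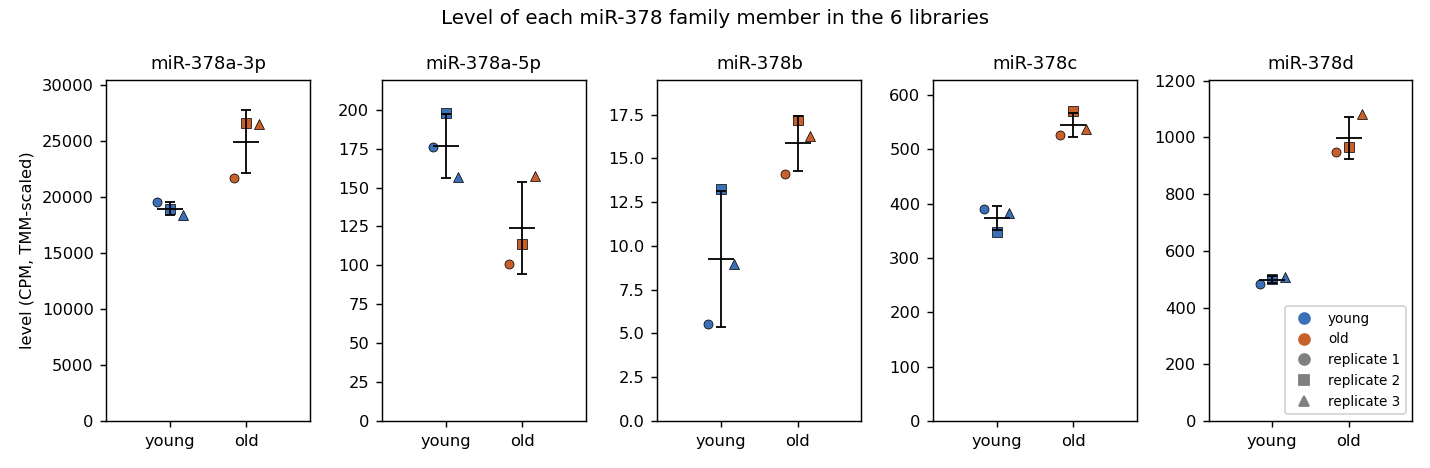
Level of each member in CPM (TMM-scaled, linear axes from 0) in 3 young and 3 old libraries. Points are libraries, and bars are mean and SD. miR-378a-3p, miR-378b, miR-378c and miR-378d were higher in every old library than in every young one, whereas the groups of miR-378a-5p overlapped.

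The question put to the old and young libraries was which vesicle miRNAs differ in relative amount with age. All 5 members passed the filter on low counts. miR-378d was called higher in old and no member was called lower by edgeR's quasi-likelihood test, against a background of 4.32% of all 347 loci called in either direction. At an unadjusted p the 1 member lower in old, miR-378a-5p, was at 0.0344, and DESeq2 called no member lower either. Of the 5 members, 4 had every old library above every young one, where 14.1% of all loci did. The rule for the family rested on this same contrast, so nothing is read from these counts. The median log2 fold change of the members was 0.55, beside 0.04 over all loci tested.

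The dominant guide, miR-378a-3p, held 19553, 18923 and 18389 CPM in young replicates 1, 2 and 3 and 21749, 26663 and 26519 CPM in old replicates 1, 2 and 3. The groups did not overlap, and old replicate 1 lay nearest to the young libraries. Its log2 fold change, old minus young, was 0.40 ± 0.16 (SE), which did not pass over all loci (adjusted p = 0.155). Without old replicate 1 the value was 0.51 and passed (adjusted p = 0.00532).

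The arms of Mir378a differed in direction. miR-378a-5p, the less abundant arm, held 176, 198 and 157 CPM in the young replicates and 101, 114 and 158 CPM in the old ones. Old replicate 3 lay just above young replicate 3, so the groups overlapped, and the log2 fold change was -0.51 ± 0.22 (SE, adjusted p = 0.181). In human breast cancer cells this arm is known to repress ERRγ and GABPA, which act with PGC-1β on oxidative metabolism.

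The share of the 5p arm needs no scaling between libraries. miR-378a-5p made up 0.891% of both arms in young replicate 1 (exact 95% interval 0.785 to 1.01), 1.04% in young replicate 2 (0.927 to 1.15) and 0.844% in young replicate 3 (0.742 to 0.956). In old replicate 1 it made up 0.461% (0.376 to 0.561), in old replicate 2 0.425% (0.362 to 0.496) and in old replicate 3 0.591% (0.512 to 0.677). The highest old interval thus ended below the lowest young one, though these intervals cover counting error only, not spread between libraries. The share averaged 0.923% ± 0.0996 over young libraries and 0.492% ± 0.0870 over old ones (SD, n = 3). These values rest on 244 to 329 counts of the 5p arm in young and 100 to 203 in old libraries.

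Set among other hairpins, so low a share was ordinary. Of 145 hairpins with both arms counted apart and at least 100 counts on average, Mir378a ranked 68 from the most one-sided, and the median share of the smaller arm was 0.90%. The 5p share had groups that did not overlap in 18 of these hairpins, or 12.4%. Among the 22 whose smaller arm held at least 100 counts on average, 4 had such groups, and the log2 ratio of 5p to 3p was -0.92 for Mir378a, old minus young. Over all 145 hairpins Mir378a ranked 27 by the size of this change. Hairpins with fewer counts on the smaller arm lay lower, among them Mir499 at -2.34, Mir351 at -1.90 and Mir30c-2 at -1.40, none of whose groups overlapped. Among the 22, a restriction chosen after the values were seen, none was lower than Mir378a, and Mir320, at 1.23 with overlapping groups, was larger in size. Both copies of Mir199a, at -0.69 and -0.68, came next on the same side.

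**Figure D2:**
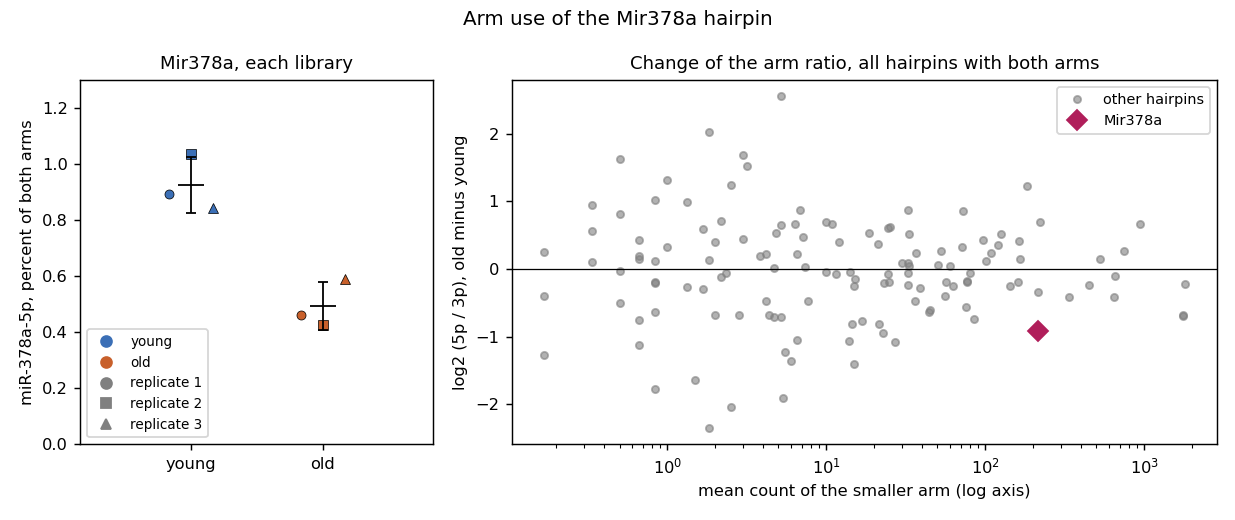
Left, miR-378a-5p as a percent of both Mir378a arms in each library, with mean and SD. Right, change of the log2 ratio of 5p to 3p, old minus young (0.5 added to each count), against the mean count of the smaller arm on a log axis, for the 132 hairpins with a count on the smaller arm. All 3 old shares lie below the young ones, and Mir378a, at -0.92, is the lowest point among hairpins whose smaller arm holds at least 100 counts.

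miR-378d was the member called. It held 484, 502 and 507 CPM in the young replicates and 949, 965 and 1084 CPM in the old ones. The young libraries lay within a narrow range, and each old library lay well above it. The log2 fold change was 1.01 ± 0.16 (SE, adjusted p = 0.0009), a level 2.01 times that in young, and 11 of the 347 loci had a larger positive value. Leaving out any 1 library kept the value between 0.93 and 1.06 and the adjusted p at or below 0.0355.

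miR-378c, which shares all but the 3′ end and the base in the seed with miR-378d, held 390, 348 and 382 CPM in young and 527, 571 and 538 CPM in old replicates. Its groups did not overlap either, with a log2 fold change of 0.55 ± 0.17 (SE) that did not pass (adjusted p = 0.0691). It passed with DESeq2 (adjusted p = 0.0167) and without old replicate 1 (adjusted p = 0.0116). The least abundant member, miR-378b, held 5.52, 13.2 and 8.98 CPM in young and 14.1, 17.2 and 16.3 CPM in old replicates. That is 8 to 22 counts per young and 14 to 24 per old library, and its log2 fold change of 0.77 ± 0.44 (SE, adjusted p = 0.305) is correspondingly loose. Without young replicate 1 it was 0.48 and without young replicate 2 it was 1.13.

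**Figure D3:**
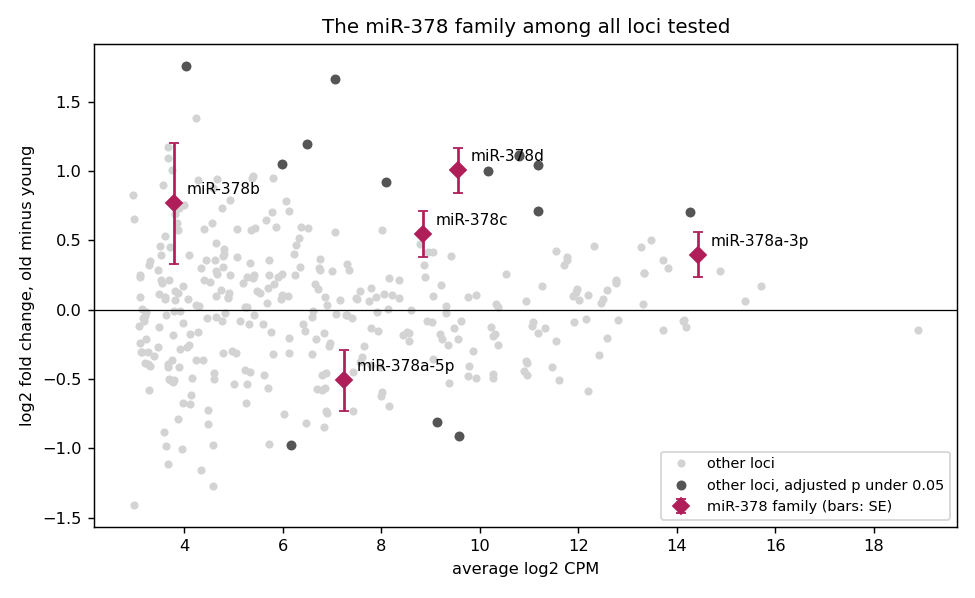
Log2 fold change (old minus young) against average log2 CPM for the 347 loci tested, with the 5 members as diamonds and their SE as bars. miR-378d, at 1.01, lies among the called loci, miR-378c, miR-378a-3p and miR-378b lie above 0 without passing, and miR-378a-5p lies at -0.51.

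The counts of the relatives were also set against those of miR-378a-3p within each library, a ratio that needs no scaling between libraries. The ratios of miR-378d draw on the contrast by which the family was chosen and are a description. As a percent of miR-378a-3p counts, miR-378d held 2.48%, 2.65% and 2.76% in young replicates 1, 2 and 3 and 4.36%, 3.62% and 4.09% in old replicates 1, 2 and 3. No young interval, which covers counting error only, reached an old one, the highest young bound being 2.96% and the lowest old bound 3.43%. miR-378c counts were 2.00%, 1.84% and 2.08% in young and 2.42%, 2.14% and 2.03% in old, and these groups overlapped. For miR-378b the ratio was 0.0282% to 0.0699% in young and 0.0615% to 0.0649% in old.

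Set directly against each other, miR-378d counts were 124%, 144% and 133% of miR-378c counts in young replicates and 180%, 169% and 202% in old ones. miR-378d thus outnumbered miR-378c in every library, by more in each old library than in any young one. The ratio averaged 134% ± 10.3 over young libraries and 184% ± 16.5 over old ones (SD, n = 3). With miR-378b, miR-378c and miR-378d added to miR-378a-3p as 1 row, the value was 0.41 (adjusted p = 0.164), close to that of miR-378a-3p alone. The part of wrongly assigned reads in these ratios was not tested.

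**Figure D4:**
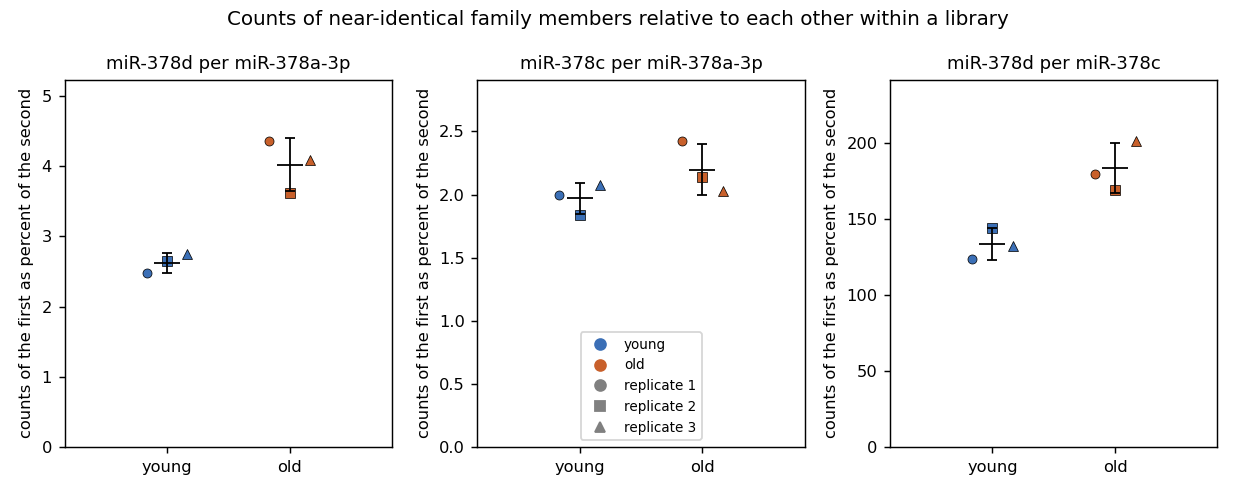
Counts of one member as a percent of those of another in each library (linear axes from 0), with mean and SD. The ratio of miR-378d to miR-378a-3p was 2.48% to 2.76% in young and 3.62% to 4.36% in old libraries, and that of miR-378d to miR-378c was also higher in each old library, whereas the ratio of miR-378c to miR-378a-3p overlapped.

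Ratios within other families were taken from pairs of miRNAs whose sequences differ at 1 position. How many positions separate miR-378d from miR-378a-3p was not compared here, so it is not placed among these pairs by sequence. In 14 pairs with both partners tested, the ratio of the less to the more abundant partner changed by 0.838 to 1.65 times from young to old, with a median of 1.05, and in 5 of the 14 the groups did not overlap. The ratio of miR-378d to miR-378a-3p changed by 1.53 times. The pairs with a larger change were miR-10b-5p with miR-10a-5p, at 1.65 times, and let-7f-2-3p, a passenger strand of few counts, with let-7a-1-3p, at 1.64 times. The pair of let-7f-2-3p with let-7c-2-3p, also at 1.53 times, was level with miR-378d. At the other end let-7e-5p with let-7a-5p was at 0.838 times. Besides let-7f-2-3p, also let-7a-5p and let-7c-5p are in more than 1 pair, so the 14 pairs are not independent.

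Over the 6 libraries, the log2 CPM of miR-378d followed most closely that of miR-143-3p (Pearson r = 0.98), the slow-muscle miRNA miR-499-5p (0.97), miR-1843b-5p (0.97), miR-145a-3p (0.96) and miR-6240 (0.95), of 305 other mature miRNAs compared. That of miR-378a-3p followed most closely miR-2137 (0.98), miR-6236 (0.97), let-7f-2-3p (0.97), miR-32-5p (0.94) and miR-27a-3p (0.92). These r are descriptions over 6 libraries in 2 groups, and the points share the scaling of their library. Of the 10 miRNAs, miR-143-3p, miR-499-5p, miR-1843b-5p, miR-6240 and miR-6236 were themselves called higher in old by edgeR, as were 12 of all 347 loci. Both members were higher in every old library, so picking by r favours loci that are higher in old. Nothing is therefore read from these calls.

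Lists of other miRNAs were set beside the family. Over all 347 loci, edgeR called 4.32% and DESeq2 called 23. By unadjusted edgeR p, miR-378a-5p at 0.0344 ranked 65, so at least 65 of the 347 loci lay under 0.05. Those tied to lipid and mitochondrial metabolism, such as the sterol-regulating miR-33 and also miR-27, were 20 names, of which miR-696 was not found. Of their 20 loci 6 were at 0, 2 of these at loci that overlap another. The 10 loci tested had none called in either direction. Beside 4.32% called over all loci, 0 of 10 does not set this list apart. At an unadjusted p under 0.05 there were also 0 of them, and DESeq2 called 0. The most abundant were miR-27b-3p, at a log2 fold change of 0.30 ± 0.17 (SE), and miR-27a-3p, at 0.36 ± 0.17, while the median of the list was 0.02. Of 16 tested loci of miRNAs known from thermogenic fat, 1 was called lower and none higher, beside 4.32% called over all loci, and the median was -0.19. DESeq2 called 2 of the 16, and 6 were at an unadjusted p under 0.05. The locus called by edgeR was the Mir365-1 copy of miR-365-3p, at -0.98 ± 0.25 (SE, adjusted p = 0.0280), a miRNA that in mouse promotes brown fat formation. The 16 loci stand for 13 mature miRNAs, and edgeR did not call the other copy of miR-365-3p. The copies share 1 mature sequence, so their reads cannot be told apart and the call is not particular to Mir365-1. The most abundant of this list were miR-34a-5p, at 0.45 ± 0.17 (SE), and miR-196a-5p, at 0.05 ± 0.20.

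Of 6 tested loci of muscle-enriched miRNAs, 4 were called higher and none lower, beside 4.32% called over all loci, with a median of 0.86. These 6 loci stand for 5 mature miRNAs, so the calls are not independent. DESeq2 also called 4, where it called 23 of all 347 loci. At an unadjusted p under 0.05 there were 5, where at least 65 of the 347 were. Those called by edgeR were both copies of miR-133a-3p, at 1.11 ± 0.18 and 1.12 ± 0.18 (SE), miR-499-5p at 1.00 ± 0.16 and miR-1a-3p at 0.71 ± 0.18. The values of miR-378d and miR-499-5p were thus alike within their errors. The most abundant muscle miRNA, miR-206-3p, had 0.17 ± 0.22 (SE, adjusted p = 0.731).

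Markers of other cell types moved in part with the family. The 8 smooth muscle and fibroblast loci, for all 6 names, had 1 member called higher, miR-143-3p (0.70 ± 0.16, SE), and summed to 3.11% to 3.36% of counts in young and 3.81% to 4.55% in old libraries, with none at 0. Of these 8, 5 had a positive value and 6 were at an unadjusted p under 0.05, with a median of 0.21. Over all 347 loci 4.32% were called, and at least 65 were at an unadjusted p under 0.05. miR-143-3p alone averaged 14954 CPM in young and 24356 CPM in old libraries. The leukocyte markers summed to 0.113% to 0.140% in young and 0.0917% to 0.111% in old. Of their 6 loci 5 were tested and 1, miR-155-5p, was called lower (-0.81 ± 0.18, SE), with miR-223-3p at 0.11 ± 0.18 and miR-142a-3p at 0. Yet 4 of the 5 tested had a positive value, and their median was 0.11. The skeletal muscle markers summed to 4.95% to 6.26% in young and 4.61% to 9.91% in old, with the Mir1a-2 copy of miR-1a-3p at 0. The red blood cell markers summed to 4.03% to 4.36% in young and 4.13% to 4.52% in old, with miR-486 at 0 at loci that overlap each other, miR-451a at 0.06 ± 0.16 and miR-144-3p at 0.31 ± 0.33. The liver markers summed to 0.0234% to 0.0291% in young and 0.0270% to 0.0476% in old, with miR-122-5p at 0, miR-192-5p at 0.08 ± 0.19 and miR-194-5p at 0.71 ± 0.35. The part of these markers in the values of the family was not tested. The loci listed at 0 among these markers all overlap another counted locus.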

How the data were processed

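The authors aligned small RNA reads with BWA to mm10, per the submitters' processing notes. The deposited values are raw read counts per mature miRNA locus from featureCounts 2.0.6, per the file headers, with no strand, overlap or multi-mapping option. The sources used here give neither BWA settings nor adapter trimming. Loci were named by position from RefSeq (GRCm38.p6) or GENCODE M21 on GRCm38, with a tolerance of 3 bases, and 12 of 2110 loci had no name. Old and young were compared with edgeR 4.0.16 in R 4.3.3 (quasi-likelihood test, filterByExpr at count 10 and total 15, TMM scaling), with two-sided p-values adjusted by the Benjamini-Hochberg method over all 347 loci tested and a threshold of 0.05. The procedure was tested on simulated counts. Levels are CPM on TMM-scaled library sizes, and each SE derives from the coefficient and its F statistic. Alternatives included DESeq2 1.42.0. Hairpins were folded with RNAfold 2.7.2. Intervals are exact binomial intervals at 95% and cover counting error only, since PCR copies are not independent molecules.

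The members and the lists of miRNAs were chosen with earlier results of these data known. Besides the members, the miRNAs named are the 2 loci on either side of a member in abundance, the 5 whose levels followed miR-378a-3p most closely and the 5 that followed miR-378d, pairs of miRNAs that differ at 1 position, and, per list, the 2 tested loci with most counts plus up to 4 past the threshold. The hairpins named in the comparison of arms, and the restriction there to a smaller arm of at least 100 counts, were chosen after their values were seen.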

Additional observations from a re-analysis of the deposited data

How the results depend on the processing

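The direction of each member's log2 fold change was kept under all 13 to 15 alternatives run for it. miR-378d passed in all 15 (adjusted p up to 0.0355), at 0.93 to 1.06 when 1 library was left out. In 2 of the 15, 1% or 2% of the miR-378a-3p counts was taken off those of miR-378d, which, with the ratios as measured, could only raise the value (1.28 and 2.05). miR-378a-3p passed only without old replicate 1, where it was 0.51, and its leave-one-out range was 0.35 to 0.51. miR-378c passed with DESeq2 (0.55) and without old replicate 1 (0.59), with a leave-one-out range of 0.50 to 0.59. miR-378a-5p and miR-378b passed in none, with leave-one-out ranges of -0.73 to -0.37 and 0.48 to 1.13. The number of loci called, 15, was 23 with DESeq2 (14 higher, 9 lower) and 5 to 45 when 1 library was left out, with 45 (25 higher, 20 lower) without old replicate 1. With miR-21a-5p left out it was 21, of which 13 were higher. With a replicate block it was 6, and miR-378d kept its call (1.00, adjusted p = 0.0148). Same-numbered libraries did not deviate together (correlations of -0.13, 0.02 and -0.15). With 3 libraries per group, such values cannot decide whether the numbers pair them. The difference in the ratio of miR-378d to miR-378a-3p was 1.23 to 1.60 percentage points when 1 library was left out, and that in the 5p share was -0.48 to -0.38. For the ratios of miR-378d to miR-378c and of miR-378c to miR-378a-3p, whose alternatives were chosen after seeing the data, the ranges were 40.8 to 57.1 and 0.114 to 0.312 percentage points. Depth limits miR-378b most, with at most 24 counts per library.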
